A study of Mus musculus with 20 samples.

Results

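The 5 arrays described here followed bone marrow-derived macrophages labelled as lacking TRIF through 16 h of lipopolysaccharide (LPS). They were chosen by their titles, 1 array for each of 1, 2, 4, 8 and 16 h, and are 5 of the 20 arrays of the study. The cells came from C57BL/6 mice with the genotype label TRIF -/- KO. They were grown in medium conditioned by an L929 line that makes M-CSF, replated, and given 200 ng/mL ultrapure LPS of Salmonella minessota or nothing, in serum-free medium. On each array RNA of LPS-treated cells carried Cy5 and RNA of untreated cells of the same time carried Cy3. The other arrays gave 5 times each for wild-type, MyD88-KO and double-KO cells, the last labelled as lacking both adaptors. Wild-type and double-KO values stand beside the TRIF-KO values below. The mice were matched by age and gender according to the labels. No label states the number of mice, how the alleles were made, or whether arrays came from separate mice or cultures, so p-values measure only the spread between these arrays.

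Toll-like receptor 4 senses LPS and signals through 2 adaptors. MyD88 acts at the plasma membrane and drives NF-kB and MAP kinases, and TRIF, encoded by Ticam1, acts from endosomes and drives IRF3, interferon beta and the interferon-stimulated genes, with a second wave of NF-kB. A macrophage without TRIF therefore keeps the MyD88 arm. In such cells the immediate early genes encode transcription factors and phosphatases, the next genes encode cytokines, chemokines and NF-kB inhibitors, and the late genes include enzymes of nitric oxide, lipid and amino acid metabolism.

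The probe for Ticam1 did not separate the TRIF-KO label from wild-type. Its level in untreated cells, as normalized log2 intensity, was 10.58, 10.49, 10.91, 10.85 and 11.2 at 1, 2, 4, 8 and 16 h in TRIF-KO arrays. The wild-type values were 10.51, 10.46, 10.62, 10.68 and 10.95, and the double-KO values lay between 7.23 and 7.35. The TRIF-KO levels thus overlapped the wild-type levels and stood more than 3 log2 units above the double-KO levels. The double-KO cells are also labelled as lacking TRIF, so the probe did not give the same result for the 2 labels. It checks the TRIF-KO label only if that allele removes the stretch the probe binds, which is not given in the sources used here. A different allele and a label that does not match the cells cannot be told apart. The cells are therefore called TRIF-KO-labelled. The sex-linked genes also differed between the labels: Xist lay between 6.31 and 6.78 in TRIF-KO-labelled and between 9.42 and 10.56 in wild-type cells, and Eif2s3y between 13.81 and 14.38 against 6.42 to 6.6. Sex and genotype label cannot be told apart in any comparison of TRIF-KO-labelled with wild-type cells. The 8 macrophage markers were well above background on all 5 arrays in untreated cells, with a summed level of 19.64 to 19.92. The summed levels were 15.18 to 15.96 for 9 neutrophil markers, 17.11 to 17.36 for 5 dendritic cell markers, 10.64 to 11.34 for 5 T cell markers and 10.27 to 10.85 for 5 B cell markers.

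Values are log2 ratios of LPS-treated over untreated cells, so that 1 is a 2-fold higher and -1 a 2-fold lower level with LPS. With 1 array for each time, arrays were joined into an early phase (1 and 2 h), a middle phase (4 h) and a late phase (8 and 16 h), and each mean was tested against 0 with limma over all genes, at an adjusted p (Benjamini-Hochberg) under 0.05. The standard error (SE) comes from the 1, 2, 8 and 16 h arrays of all genotype labels and includes the change between the times joined in a phase. The 4 h arrays add nothing to it. The single 4 h array was taken to vary like the others. Of 2487 genes at an unadjusted p under 0.05 in limma early, 59 were called, and of 8480 late, 6075 were. A call thus needed a smaller unadjusted p early than late. Counts of calls in different phases therefore do not by themselves give the time of a change. LPS was in Cy5 on all 5 arrays, so a gene-specific dye effect is part of each mean. It cancels in the difference between phases and in the difference from double-KO. The 1, 2 and 4 h arrays were on 1 slide and the 8 and 16 h arrays on another, so late against early cannot be told apart from slide. All double-KO arrays were on other slides, scanned on another day. The difference from double-KO therefore cannot be told apart from slide and scan day.

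The promoters of 6 genes are shown because they span the phases described below: Cxcl1, Cxcl2, Tnfaip3 and Nfkbia were called early, Il6 at 4 h and late, and Ifit1 at 4 h but not late. Each runs from 250 bases before to 50 bases after the RefSeq start on the GRCm38.p6 build, 5′ to 3′ on the gene's own strand. Cxcl1 lies at chr5:90890995-90891294 (plus strand), Cxcl2 at chr5:90903649-90903948 (plus), Tnfaip3 at chr10:19015361-19015660 (minus), Nfkbia at chr12:55492598-55492897 (minus), Il6 at chr5:30012864-30013163 (plus) and Ifit1 at chr19:34640639-34640938 (plus). Capitals mark matches on either strand to the kappaB motif of NF-kB, the AP-1 motif TGANTCA or the paired GAAA motif GAAANNGAAA, an element of interferon-responsive promoters.
Cxcl1: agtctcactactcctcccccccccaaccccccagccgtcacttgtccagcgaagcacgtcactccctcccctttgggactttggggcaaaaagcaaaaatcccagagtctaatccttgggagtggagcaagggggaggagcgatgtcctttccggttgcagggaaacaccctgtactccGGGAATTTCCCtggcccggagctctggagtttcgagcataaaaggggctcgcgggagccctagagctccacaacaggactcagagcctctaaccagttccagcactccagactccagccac
Cxcl2: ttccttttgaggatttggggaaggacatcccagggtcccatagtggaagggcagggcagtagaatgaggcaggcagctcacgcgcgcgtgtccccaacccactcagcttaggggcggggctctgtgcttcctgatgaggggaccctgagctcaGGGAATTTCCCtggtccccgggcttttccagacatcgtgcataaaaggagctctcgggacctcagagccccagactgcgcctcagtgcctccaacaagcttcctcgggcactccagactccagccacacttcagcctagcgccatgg
Tnfaip3: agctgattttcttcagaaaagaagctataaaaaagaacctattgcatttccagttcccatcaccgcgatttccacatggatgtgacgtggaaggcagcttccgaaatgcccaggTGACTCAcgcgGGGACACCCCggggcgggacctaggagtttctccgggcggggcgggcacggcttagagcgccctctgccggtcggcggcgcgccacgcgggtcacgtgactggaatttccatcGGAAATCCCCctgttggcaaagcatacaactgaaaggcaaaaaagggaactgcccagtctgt
Nfkbia: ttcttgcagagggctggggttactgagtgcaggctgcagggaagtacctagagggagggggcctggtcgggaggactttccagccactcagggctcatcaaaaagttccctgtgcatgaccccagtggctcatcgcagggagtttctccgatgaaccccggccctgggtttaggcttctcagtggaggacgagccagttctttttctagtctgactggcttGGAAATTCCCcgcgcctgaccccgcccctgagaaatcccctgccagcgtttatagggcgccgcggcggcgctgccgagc
Il6: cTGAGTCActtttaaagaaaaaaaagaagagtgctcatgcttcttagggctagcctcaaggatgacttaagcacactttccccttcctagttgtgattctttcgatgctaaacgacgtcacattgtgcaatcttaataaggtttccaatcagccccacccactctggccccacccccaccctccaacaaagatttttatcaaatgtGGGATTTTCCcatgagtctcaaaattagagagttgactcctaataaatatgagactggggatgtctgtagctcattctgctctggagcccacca
Ifit1: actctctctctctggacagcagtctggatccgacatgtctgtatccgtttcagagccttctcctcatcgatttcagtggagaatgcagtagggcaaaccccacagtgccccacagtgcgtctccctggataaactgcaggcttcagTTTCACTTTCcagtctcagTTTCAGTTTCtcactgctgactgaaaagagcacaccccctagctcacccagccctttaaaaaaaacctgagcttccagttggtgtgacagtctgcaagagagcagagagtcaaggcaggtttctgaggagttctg
The capitals in Cxcl1 and in Cxcl2 each hold 2 overlapping kappaB matches. Of the 19 genes called higher early that had a promoter sequence, 7 (36.8%) held a kappaB match, namely Ccrl2, Cxcl1, Cxcl2, Ier3, Irf1, Nfkbia and Tnfaip3. The share was 5.3% (94 of 1772) for genes called higher late and 4.9% (655 of 13370) for all genes tested. The paired GAAA motif was in 0 of the 19 early promoters, in 4 of 31 (12.9%) promoters of genes called higher at 4 h and in neither other phase, and in 3.46% of all. The AP-1 motif was in 5.26% of early, 6.66% of late and 6.08% of all promoters. These shares describe letters in a window, with no test.

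The response grew slowly and was largest at 8 h. Past 2-fold higher were 147 genes at 1 h (0.762% of the genes well above background on that array), 577 at 2 h (2.84%), 962 at 4 h (4.8%), 1437 at 8 h (8.4%) and 1322 at 16 h (7.38%). Past 2-fold lower were 29 (0.15%), 376 (1.85%), 1209 (6.03%), 2097 (12.3%) and 1347 (7.52%). Genes lower with LPS were thus a minority at 1 h and outnumbered the higher ones from 4 h. The sums were 176, 953, 2171, 3534 and 2669 in TRIF-KO-labelled cells and 241, 1634, 3750, 3796 and 1968 in wild-type cells. The TRIF-KO-labelled count was the lower one up to 8 h and the higher one at 16 h. These sums come from different numbers of genes well above background, at 8 h 17115 in TRIF-KO-labelled and 20591 in wild-type cells. The standard deviation of the ratios at 8 h was 0.933 and 0.885. The 8 h sums therefore do not show a smaller response than in wild-type cells. Double-KO arrays had between 1 and 111 such genes.

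**Figure D1:**
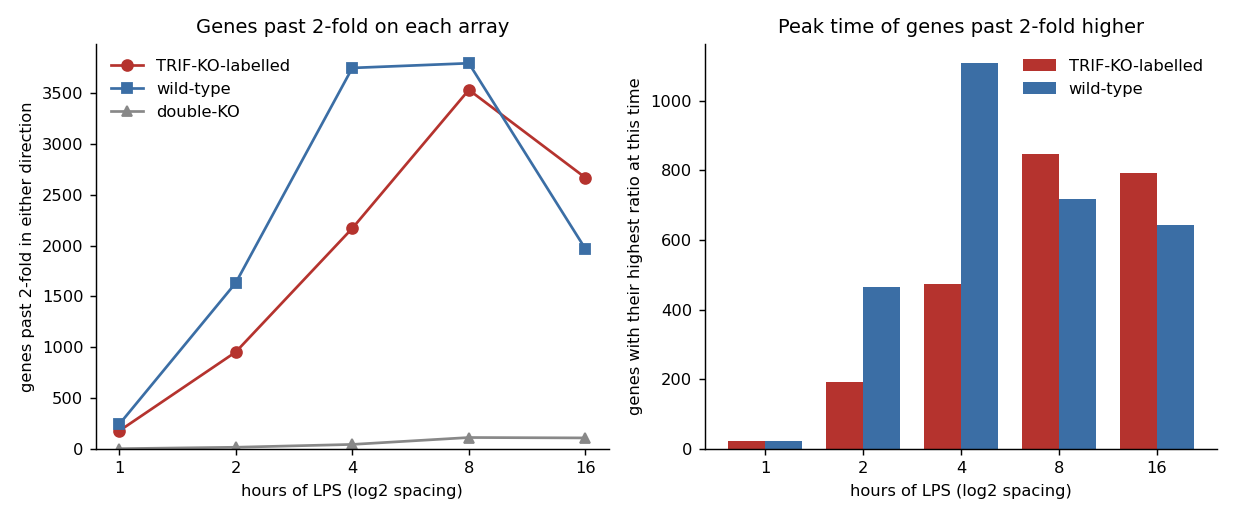
Left, number of genes past 2-fold in either direction on each array (1 array per point) against hours of LPS, for TRIF-KO-labelled, wild-type and double-KO cells. Right, number of genes whose largest ratio in either direction was past 2-fold higher, by the time of that ratio. The TRIF-KO-labelled bars are highest at 8 h (847 genes) and the wild-type bars at 4 h (1108 genes).

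Most genes that responded in both peaked at the same time as in wild-type cells. Each gene past 2-fold on at least 1 array was placed by its largest ratio in either direction. A gene that rose and later fell further thus counts among the lower genes. In TRIF-KO-labelled cells 2329 genes counted as higher. Their largest ratio fell at 1, 2, 4, 8 and 16 h for 23, 192, 475, 847 and 792 genes. The wild-type peaks of 2956 genes fell at those times for 22, 464, 1108, 718 and 644 genes. Among 1813 genes higher in both, 472 (26.03%) peaked later in TRIF-KO-labelled cells, 1219 (67.24%) at the same time and 122 (6.729%) earlier. For 2433 genes lower in both, 449 (18.45%) reached their lowest ratio later, 1827 (75.09%) at the same time and 157 (6.453%) earlier. These counts are a description without a test. Across genes, the ratios of neighbouring times correlated at 0.59 (1 and 2 h), 0.71 (2 and 4 h), 0.82 (4 and 8 h) and 0.72 (8 and 16 h), against 0.25 for 1 and 16 h. Genes are not independent replicates and these values carry no p.

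Early, 29 genes (0.132% of 21961 tested) were called higher and 30 (0.137%) lower. The higher genes held 5 of the 19 immediate early genes (Dusp1, Dusp2, Egr1, Egr2 and Ier3), 2 of 14 genes of NF-kB and its feedback (Nfkbia and Tnfaip3), 3 of 19 cytokines (Il1b, Tnf and Tnfsf9) and 2 of 18 chemokines (Cxcl1 and Cxcl2). None of the 32 interferon-stimulated genes was among them. The early calls rest on both arrays: 0 were left without the 2 h array and 11 without the 1 h array. With the ratios of all arrays scaled to the same spread, 200 genes were called higher and 138 lower. No gene differed early from double-KO after adjustment (0% higher and 0% lower with limma, 527 genes at an unadjusted p under 0.05).

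Cxcl1 and Cxcl2 encode chemokines that draw neutrophils, and were the top early genes. The Cxcl1 ratio was 5.70, 7.64, 7.71, 6.95 and 6.04 at 1, 2, 4, 8 and 16 h, with an early mean of 6.67 ± 0.70 (SE, n = 2 arrays; 102-fold; adjusted p = 0.0046 by limma). It was high from the first array on, with kappaB matches in the promoter above. Cxcl2 had ratios of 5.54, 6.41, 6.46, 4.99 and 4.48, an early mean of 5.97 ± 0.70 (62.7-fold; adjusted p = 0.0097). In double-KO cells both stayed between -0.24 and 0.33 at every time. The wild-type Cxcl1 ratio had dropped to 3.53 and the Cxcl2 ratio to 2.27 at 16 h, below every TRIF-KO-labelled ratio.

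Of the 3 cytokine genes called early, Il1b and Tnf kept ratios above 2 on all arrays and Tnfsf9 did not. Il1b, the precursor of interleukin 1 beta, had ratios of 4.10, 6.15, 5.66, 5.03 and 4.74, with an early mean of 5.13 ± 0.54 (34.9-fold; adjusted p = 0.0046). Its probe was saturated in the LPS channel on 3 of the 5 arrays, so those ratios may be too small. Its level in untreated cells also rose, by 2.55 ± 0.52 on the log2 scale from early to late (adjusted p = 0.01). Tnf, the tumour necrosis factor gene, had ratios of 2.92, 3.43, 3.37, 2.79 and 2.14 (early 3.17 ± 0.40, adjusted p = 0.013). Tnfsf9, the ligand of 4-1BB, had 4.59, 5.84, 5.15, 3.30 and 1.83 (early 5.22 ± 0.64, 37.2-fold, adjusted p = 0.011), and its ratio at 16 h was the lowest of the 5.

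Both genes of the NF-kB list called early encode inhibitors, and no NF-kB subunit was called early. The subunits were nevertheless higher, as all 14 genes of the list were past 2-fold higher at 2 h. Of the genes well above background, 2.84% were. Nfkbia, which encodes the inhibitor that holds NF-kB in the cytoplasm, had ratios of 2.40, 3.13, 3.19, 2.75 and 2.30 (early 2.77 ± 0.34, adjusted p = 0.011), with 1 saturated array. Tnfaip3, which encodes the ubiquitin-editing enzyme A20, had 3.88, 5.31, 4.07, 4.12 and 3.00 (early 4.60 ± 0.75, 24.2-fold, adjusted p = 0.041). Both ratios stayed at or above 2.30 on all arrays. Of the brakes on Toll-like receptor signalling, 4 of 18 were called higher early (Dusp1, Nfkbia, Socs3 and Tnfaip3). At 4 h 4 were higher and 1 lower, and late 9 were higher and 4 lower. Over all genes 0.132% were called higher early, 1.91% higher and 2.42% lower at 4 h, and 12.8% higher and 14.9% lower late. Socs1, an inhibitor of JAK kinases, was called at 4 h (2.53 ± 0.23, adjusted p = 0.00091) and not early (-0.25 ± 0.17, adjusted p = 0.65). Irak3, an inactive kinase that restrains MyD88 signalling, had ratios of -0.09, 0.90, 2.59, 3.04 and 2.69.

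The immediate early genes split into those that faded and those that lasted. Egr1, a zinc finger transcription factor, had 4.75 and 3.72 at 1 and 2 h, 0.53 at 4 h, and 2.89 and 1.67 at 8 and 16 h, and was called early (4.24 ± 0.65, adjusted p = 0.033) and late (2.28 ± 0.65, adjusted p = 0.025). It was thus lowest at 4 h. Egr2, its relative, had 4.01, 4.92, 2.36, 1.45 and 1.03 (early 4.46 ± 0.70, adjusted p = 0.034), while the wild-type ratio was 6.40 at 2 h and -2.02 at 16 h. Dusp2, a MAP kinase phosphatase, had 4.13, 4.17, 5.39, 4.31 and 1.97 (early 4.15 ± 0.68, adjusted p = 0.041). Dusp1, another such phosphatase, fell back from 3.43 and 3.13 through 2.02 and 1.40 to 0.07, and its late mean lay 2.54 ± 0.68 below its early mean (adjusted p = 0.038).

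Fos, a subunit of AP-1, turned from higher to lower with LPS. Its ratio was 3.06 at 1 h, 0.34 at 2 h, -1.79 at 4 h, -2.48 at 8 h and -2.49 at 16 h. The early mean missed the threshold (1.70 ± 0.60, adjusted p = 0.32), the late mean was lower than 0 (-2.48 ± 0.60, adjusted p = 0.011), and late minus early was -4.19 ± 0.85 (18.2-fold lower, adjusted p = 0.011). In the LPS-treated cells the Fos level fell by 3.29 ± 0.97 (adjusted p = 0.036), while the untreated level changed by 0.90 ± 0.42 (adjusted p = 0.16). In all, 6 of 19 immediate early genes were called lower in late minus early (Btg2, Dusp1, Fos, Fosb, Ier5 and Klf2) and 0 higher. Over all genes 5.79% were called lower and 4.9% higher. The list median was -1.52 beside -0.02 over all genes tested.

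Among the 30 genes called lower early, A130019P10Rik, 2810040C05Rik and Gm3613 were among the 8 lowest. A130019P10Rik had ratios of -1.88, -2.12, -1.14, -0.28 and -0.23 (early -2.0 ± 0.18, adjusted p = 0.0026), and 2810040C05Rik had -1.53, -1.47, -0.95, 0.63 and 0.69 (early -1.50 ± 0.16, adjusted p = 0.0052). Both were low early in wild-type arrays too (-1.83 and -2.13, and -1.79 and -1.67 at 1 and 2 h), and lay within 0.31 of 0 in double-KO arrays. Gm3613 stayed low at all 5 times, between -2.08 and -1.72. Of the 30 genes lower early, 14 were called higher in late minus early, beside 4.9% of all genes. Of the 29 genes higher early, 8 were called lower in it, beside 5.79% of all genes. The early mean that chose these genes is also subtracted in late minus early, so the counts are no independent evidence of a return. A130019P10Rik (1.74 ± 0.25, adjusted p = 0.002) and 2810040C05Rik (2.16 ± 0.23, adjusted p = 0.00044) were among the 14. For A130019P10Rik the LPS level rose by 0.94 ± 0.26 (adjusted p = 0.029) and the untreated level fell by 0.80 ± 0.19 (adjusted p = 0.018).

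**Figure D2:**
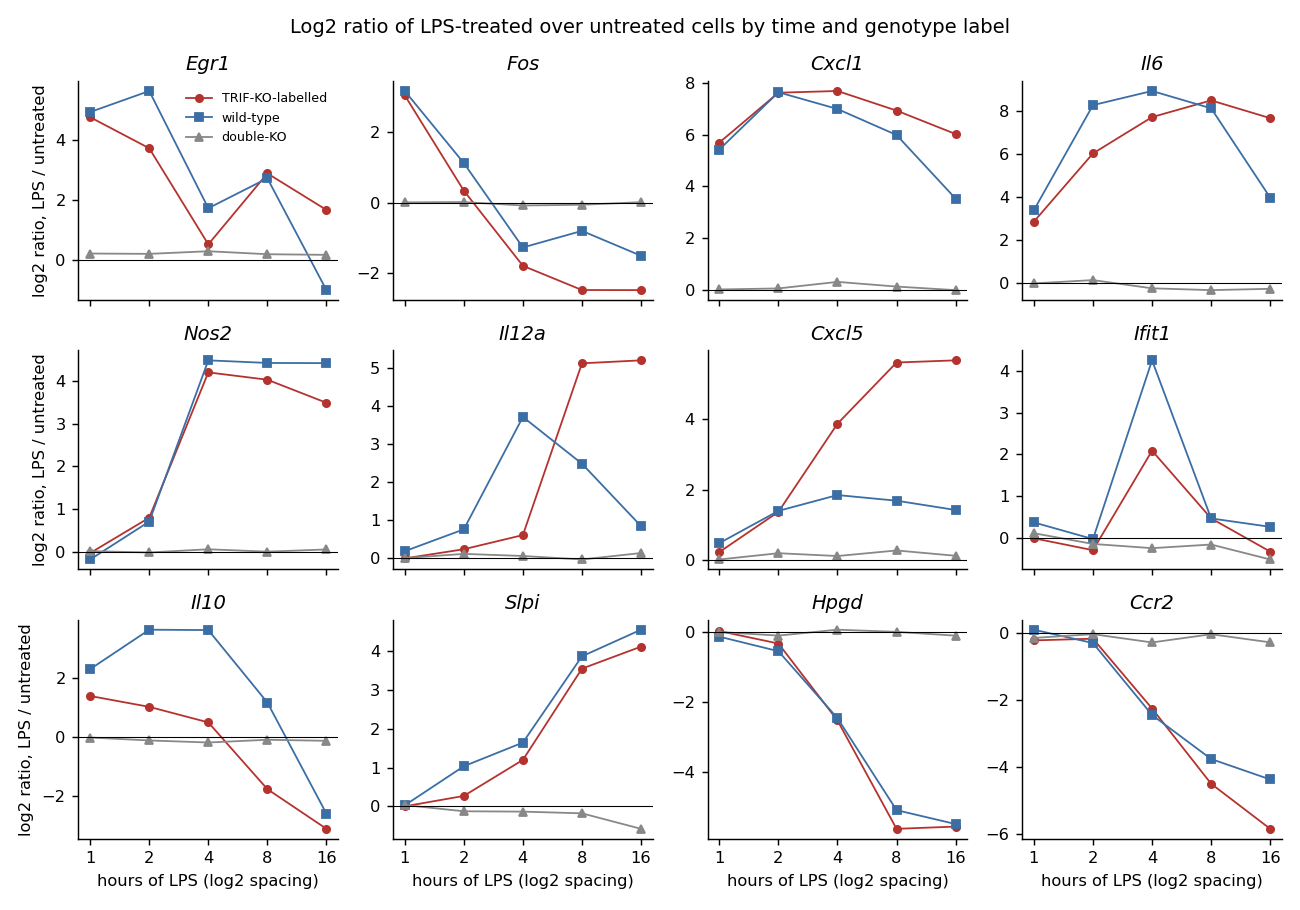
Log2 ratio of LPS-treated over untreated cells (1 array per point) against hours of LPS for 12 genes, in TRIF-KO-labelled, wild-type and double-KO cells. Egr1 and Fos are highest at 1 h in TRIF-KO-labelled cells, Il6 peaks at 8 h there (8.50) and at 4 h in wild-type cells (8.94), and Hpgd and Ccr2 pass below -4 at 8 and 16 h in the former.

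At 4 h, 420 genes (1.91%) were called higher and 532 (2.42%) lower, from 1 array. Most were also called late, 375 (89.29%) of the higher and 451 (84.77%) of the lower genes. On the slide that carried the 1, 2 and 4 h arrays together, 43 genes (0.196%) were called higher and 42 (0.191%) lower at 4 h than early. With slide as a fixed term these counts were 31 and 25, and 10 genes in all were left without the 1 h array. Leaving out the double-KO arrays, which vary least, left 185 calls at 4 h and 2 for 4 h minus early.

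Nos2 and Marco are examples of genes that rose between 2 and 4 h. Nos2, the inducible nitric oxide synthase, had ratios of -0.03, 0.80, 4.20, 4.03 and 3.49, and its 4 h ratio lay 3.82 ± 0.39 above its early mean (14.1-fold, adjusted p = 0.0052). Both channels rose from early to late, LPS by 6.36 ± 0.35 (adjusted p = 2.9e-05) and untreated by 2.98 ± 0.30 (adjusted p = 0.00042). Marco, a scavenger receptor for bacteria, had 0.12, 0.89, 3.80, 4.32 and 3.95 (4 h minus early 3.30 ± 0.35, adjusted p = 0.0056), beside wild-type ratios of -0.02, 0.52, 1.16, 1.89 and 2.43. That difference between genotype labels in late minus early was not called.

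Among the genes that went down by 4 h, Rasgrp3, an activator of Ras and Rap proteins, was one of the 8 lowest. Its ratios were 0.17 and -0.09 early and -3.92, -4.15 and -3.96 from 4 h on (4 h minus early -3.96 ± 0.20, 15.6-fold lower, adjusted p = 3.8e-05). Fam214a had 0.67, -0.44, -4.45, -4.77 and -3.74, and its LPS level fell by 4.24 ± 0.44 (adjusted p = 0.00029) with an untreated change of 0.13 ± 0.52 (adjusted p = 0.88). Cd28, a costimulatory receptor best known from T cells, had -0.04, -0.75, -3.36, -4.96 and -4.75, falling by 4.96 ± 0.28 in the LPS channel (adjusted p = 2.9e-05). The summed level of the T cell markers was 10.96 to 11.49 in the LPS channel over the 5 arrays, and none of the 5 markers measured was called in any phase. Lpar6 (-3.96 ± 0.88), Zfp36l2 (-3.58 ± 0.84), Zfyve28 (-3.54 ± 0.37) and Pdxk (-3.32 ± 0.42) were further genes among the lowest at 4 h, all with an adjusted p between 0.0014 and 0.042.

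The cytokine list had its highest median at 8 h, and at 4 h in wild-type cells. Of 19 cytokines, 5 were called higher at 4 h and 13 late, with 1 lower late (Il10), beside 1.91%, 12.8% and 14.9% of all genes. The list's median ratio was 0.708, 2.033, 2.675, 2.785 and 1.835 over the 5 times. The wild-type medians were 0.989, 2.712, 3.507, 2.481 and 0.545. Of 16 cytokines whose largest ratio in either direction was past 2-fold higher in both, 7 peaked later in TRIF-KO-labelled cells and 0 earlier. Over all genes higher in both, 26.03% peaked later and 6.729% earlier. Il6 had ratios of 2.87, 6.04, 7.72, 8.50 and 7.67 (late 8.09 ± 1.22, 272-fold, adjusted p = 0.00087), against 3.40, 8.28, 8.94, 8.13 and 3.98 in wild-type cells. Il12b, the p40 subunit of interleukins 12 and 23, had 1.01, 5.25, 6.30, 6.22 and 4.77 against 1.43, 6.46, 6.69, 5.54 and 1.49 (late 5.50 ± 1.48, adjusted p = 0.019). Both were below wild-type up to 4 h and above it at 8 and 16 h, and neither shift was called.

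Il12a, the p35 subunit that pairs with p40 in interleukin 12, was among the genes whose course differed from wild-type. It had ratios of -0.01, 0.23 and 0.61 up to 4 h and of 5.12 and 5.20 at 8 and 16 h, while wild-type had 0.18, 0.76, 3.71, 2.48 and 0.84. Neither channel was well above background at 1 and 2 h, and at 4 h only the LPS channel was, giving at least 1.47-fold. The late mean was 5.16 ± 0.28 (35.7-fold, adjusted p = 2.2e-06), with the untreated channel well above background on 1 of the 2 late arrays. The fitted late minus 4 h difference from wild-type was 6.60 ± 0.69 (adjusted p = 0.022). It uses the 4 h ratio, which is only a bound, so its size is not a measured one. The LPS level itself was 7.30 at 4 h and 12.35 and 12.69 late. Its probe lies at chr3:68502346-68502405 on the mm9 build of the array. Il12a was chosen after its values were seen.

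Il12a was 1 of 3 genes (0.0137%) whose late minus 4 h difference was higher than in wild-type, with 0 (0%) lower and 975 genes at an unadjusted p under 0.05 in limma. The others were U90926 (2.37 ± 0.27, adjusted p = 0.031), a transcript with ratios of 0.66 at 4 h and 2.83 and 2.86 late against 3.21, 3.20 and 2.84 in wild-type, and Rab3ip (2.00 ± 0.17, adjusted p = 0.0061), an exchange factor for Rab proteins, with 0.56, 1.17 and 1.17 against 2.31, 0.93 and 0.90. U90926 was thus at its wild-type ratio by 16 h. Leaving out the 1 h or the 2 h array ended the calls of Il12a and U90926 (adjusted p = 0.051 for each), as did leaving out the 16 h array (0.089 and 0.13). Without the 8 h array Il12a kept its call (0.048) and U90926 lost it (0.072), and Rab3ip kept its call in all 4 cases (0.019 to 0.039).

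Of 18 chemokines, 2 were called higher early, 7 at 4 h and 11 late, beside 0.132%, 1.91% and 12.8% of all genes. Cxcl3, a close relative of Cxcl2, had 2.92, 6.04, 6.77, 6.58 and 6.07 (late 6.33 ± 0.80, 80.4-fold, adjusted p = 0.00031). Cxcl5, another neutrophil chemokine, had 0.23, 1.37, 3.87, 5.61 and 5.67, whereas wild-type stayed at 0.48, 1.40, 1.85, 1.69 and 1.42. Its untreated signal was not well above background from 4 h on, so that it was at least 14.6-fold higher with LPS at 4 h and at least 49.85-fold late. The fitted late minus early difference from wild-type was 4.23 ± 0.49 (adjusted p = 0.038), of which the size is not a measured one because the late ratio is a bound. The LPS level rose by 5.08 ± 0.35 from early to late (adjusted p = 5.4e-05). The probe lies at chr5:91190490-91190549 on mm9. Ccl4, an inflammatory chemokine, had 2.53, 3.56, 5.34, 4.41 and 0.58 and was called in no phase.

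Only 4 genes (0.0182%) were called for a late minus early difference above wild-type and 0 (0%) for one below, with 1342 genes at an unadjusted p under 0.05 in limma. Beside Cxcl5 they were Rasgrf1, a Ras exchange factor (-0.01, 0.48, 3.10, 3.95 and 3.29; difference 2.62 ± 0.32), Txlnb (0.12, 0.24, 1.09, 2.49 and 3.12; 2.64 ± 0.32) and Camta1, a calmodulin-binding transcription activator (0.14, 0.13, 0.76, 1.79 and 1.77; 1.66 ± 0.19), all at an adjusted p of 0.038. The late wild-type ratios of these 3 lay between 0.17 and 0.99, below all late TRIF-KO-labelled ratios. The untreated Camta1 signal was not well above background on any of the 5 arrays, nor the LPS signal early, so its difference is a fitted value and not a measured size, and late it was at least 2.97-fold higher with LPS. These 3 were named because the count is small. The 4 calls fell to 0 without the 1 h array, to 1 without the 2 h or the 16 h array, and rose to 16 without the 8 h array. With the time point as a replicate block, Cxcl5 kept its call (adjusted p = 0.048) and Rasgrf1, Txlnb and Camta1 lost theirs (0.058 each). Sex cannot be told apart from the genotype label here.

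Late, 2801 genes (12.8%) were called higher and 3274 (14.9%) lower. Against early, 1077 (4.9%) were higher and 1272 (5.79%) lower, and against double-KO 1276 (5.81%) higher and 1576 (7.18%) lower. Without the 8 h array the late calls numbered 3206, without the 1 h array the late minus early calls numbered 915, without the 2 h array 1072 and without the 16 h array 1553, and the late difference from double-KO was 1710 without the 8 h array. With scaled ratios there were 857 higher and 1110 lower late, and 175 higher and 261 lower in late minus early. In LPS-treated cells 2327 genes (10.6%) rose and 2532 (11.5%) fell from early to late, and in untreated cells 2076 (9.45%) rose and 1835 (8.36%) fell. The LPS calls, 4859 in all, numbered 2239, 2671, 2460 and 3149 without the 1, 2, 8 or 16 h array, and the untreated calls, 3911 in all, 2057 without the 2 h and 912 without the 16 h array. Of the 1077 genes with a higher ratio, 721 changed in the matching direction in the LPS channel alone, 80 in the untreated channel alone, 10 in both and 266 in neither. For the 1272 with a lower ratio these were 765, 181, 30 and 296.

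The enzymes of nitric oxide, itaconate and prostaglandin metabolism were called higher late in 10 of 14 cases and lower in 3. Over all genes 12.8% were called higher and 14.9% lower late. Acod1, which makes itaconate, had 1.52, 4.78, 5.95, 4.64 and 4.16 (late 4.40 ± 0.90, adjusted p = 0.0048), with 3 saturated arrays. Ptgs2, the inducible cyclooxygenase, had 3.03, 5.78, 6.94, 8.16 and 6.89 (late 7.52 ± 1.02, 184-fold, adjusted p = 0.00045), and was at least 19.8-fold higher early. Its wild-type ratio was 8.01 at 4 h and 4.42 at 16 h. Slc7a2, which imports arginine, the substrate of Nos2, had -0.04, 0.49, 1.07, 3.74 and 4.17 (late minus early 3.73 ± 0.48, adjusted p = 0.0011), beside 4.13 at 4 h in wild-type cells. The 3 lower genes were Hpgd, which breaks down prostaglandins, Alox5, which starts leukotriene synthesis, and Ptgs1.

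Hpgd and Ccr2 had the deepest late falls. The Hpgd ratio was 0.04, -0.32, -2.52, -5.63 and -5.57 (late -5.60 ± 0.16, 48.6-fold lower, adjusted p = 4.9e-08), and its LPS level fell from 15.37 and 14.21 through 12.66 to 9.51 and 8.36. The untreated level was 15.33, 14.53, 15.18, 15.15 and 13.93, a change of -0.39 ± 0.47 (adjusted p = 0.6). Ccr2, the receptor that draws monocytes to CCL2, had -0.22, -0.17, -2.25, -4.49 and -5.83 (late -5.16 ± 0.30, 35.8-fold lower, adjusted p = 2.8e-06), with an LPS level that fell by 4.40 ± 0.66 (adjusted p = 0.002). Wild-type ended at -5.50 for Hpgd and -4.36 for Ccr2. The probes lie at chr8:58799399-58799458 and chr9:124022948-124023007 on mm9.

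Other receptors of the resting macrophage went the same way, with 7 of 19 called lower at 4 h and 15 late, 12 of them also lower in late minus early. Over all genes 2.42% were called lower at 4 h, 14.9% late and 5.79% in late minus early. The list's median was 0.082, -0.089, -0.746, -2.029 and -1.468, beside wild-type medians of 0.02, -0.133, -0.675, -1.189 and -0.656. Gpr34, a lysophospholipid receptor, had 0.24, 0.23, -2.63, -4.10 and -3.42 (late -3.76 ± 0.30, adjusted p = 2e-05). Mrc1, the mannose receptor, was low on the last 2 arrays alone, with 0.19, -0.09, -0.36, -2.47 and -4.75 (late -3.61 ± 0.71, adjusted p = 0.0041). Slco2b1, an organic anion transporter, was at least 12.5-fold lower late, its LPS signal then not being well above background. Msr1, a scavenger receptor, was the 1 member called higher late. Of the 8 macrophage markers 5 were called lower and 2 higher late, and of the 9 neutrophil markers 6 lower and 2 higher. Their summed levels in the LPS channel were 19.5 to 19.91 and 14.58 to 15.44, and their part in the receptor result was not tested. Klf2, Reps2, Rnf150 and Zfp36l1 also fell from early to late, by 3.90 ± 0.53, 4.42 ± 0.22, 4.51 ± 0.35 and 4.56 ± 0.53, with adjusted p between 4.6e-06 and 0.0015.

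The acute phase, protease and matrix genes had their highest median ratio at 8 h (2.635). Past 2-fold higher were 5 of 19 at 1 h and 9 at 2 h, beside 0.762% and 2.84% of genes well above background. Called higher were 0 of 19 early, 4 at 4 h and 11 late, against 1 lower late. Over all genes 1.91% were called higher at 4 h, and 12.8% higher and 14.9% lower late. Slpi, a secreted protease inhibitor, had 0.00, 0.27, 1.20, 3.55 and 4.11 (late minus early 3.69 ± 0.52, 12.9-fold, adjusted p = 0.0017). Lcn2, which withholds bacterial siderophores, had -0.12, 0.24, 1.84, 2.03 and 1.85 (late 1.94 ± 0.16, adjusted p = 1.9e-05). Its small ratio hid a large rise in both channels, by 6.06 ± 0.55 with LPS and by 4.18 ± 0.48 without (adjusted p = 0.00016 and 0.00081). Saa3, an acute phase apolipoprotein, likewise rose by 6.37 ± 1.07 with and 4.01 ± 0.35 without LPS (adjusted p = 0.0034 and 0.00022), at ratios of 0.01, 2.79, 4.21, 3.81 and 3.71. Serpinb2, an inhibitor of plasminogen activators, had 1.12, 5.31, 6.74, 8.01 and 7.44 (late 7.73 ± 1.39, 212-fold, adjusted p = 0.0024). Cd38, an NAD-consuming enzyme, had -0.05, 0.40, 1.25, 3.70 and 4.37, and Acsl1, which activates fatty acids, 0.51, 0.85, 2.73, 4.12 and 4.96, with late minus early of 3.86 for both (SE 0.30 and 0.42, adjusted p = 8.5e-05 and 0.00048). Pilra, an inhibitory receptor, rose too (3.90 ± 0.58, adjusted p = 0.0024).

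Genes of stress and glycolysis were called at 4 h and late, and not early. At 2 h, 6 of 16 and 1 of 17 were past 2-fold higher, beside 2.84% of genes well above background. Of 16 targets of the integrated stress response and Nrf2, 3 were called higher at 4 h and 11 late, with 0 lower, and the list's median was 0.507 at 2 h, 1.333 at 4 h and 1.651 at 8 h. Slc7a11, the cystine importer, had 0.31, 3.95, 5.86, 6.83 and 5.93 (late 6.38 ± 1.07, 83.3-fold, adjusted p = 0.0016). Of 17 genes of glycolysis and the hypoxia response, 2 were called higher at 4 h and 12 late, with 0 lower. For both lists the shares over all genes were 1.91% higher at 4 h and 12.8% higher late. Hif1a, the oxygen-regulated transcription factor, had 0.20, 0.65, 1.77, 2.76 and 2.18 (late 2.47 ± 0.27, adjusted p = 0.00014), and Slc2a1, a glucose importer, 0.53, 0.91, 2.14, 2.37 and 2.18 (late 2.28 ± 0.28, adjusted p = 0.00024). Egln3, a hydroxylase that marks HIF proteins for breakdown, was high on the last array only (3.18 at 16 h against 0.83 or less before).

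The cholesterol genes were called late, and their median was above that of wild-type from 4 h on. Of 23 genes, 14 were called higher and 2 lower late, beside 12.8% higher and 14.9% lower late over all genes. Called earlier were 0, but 6 were past 2-fold higher at 2 h and 8 at 4 h. Of genes well above background, 2.84% and 4.8% were. The medians were 0.045, 0.511, 0.762, 1.446 and 0.589 beside wild-type medians of 0.062, 0.636, 0.263, 0.288 and 0.18. The TRIF-KO-labelled ratio exceeded wild-type in 20 of 23 at 4 h, 22 at 8 h and 20 at 16 h. The share of all genes above wild-type was not counted, so these counts do not single out the list. Of 11 genes of the list higher in both, 9 peaked later, beside 26.03% of all genes higher in both. Sc5d, a late enzyme of the pathway, had 0.04, 0.99, 1.71, 2.50 and 1.22 (late 1.86 ± 0.47, adjusted p = 0.015). The 2 lower genes were Ebp, an isomerase, and Srebf2, the transcription factor of the pathway (-1.0 ± 0.17, adjusted p = 0.0017). No member differed from wild-type in late minus early after adjustment. In double-KO cells the median at 16 h was -0.781.

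**Figure D3:**
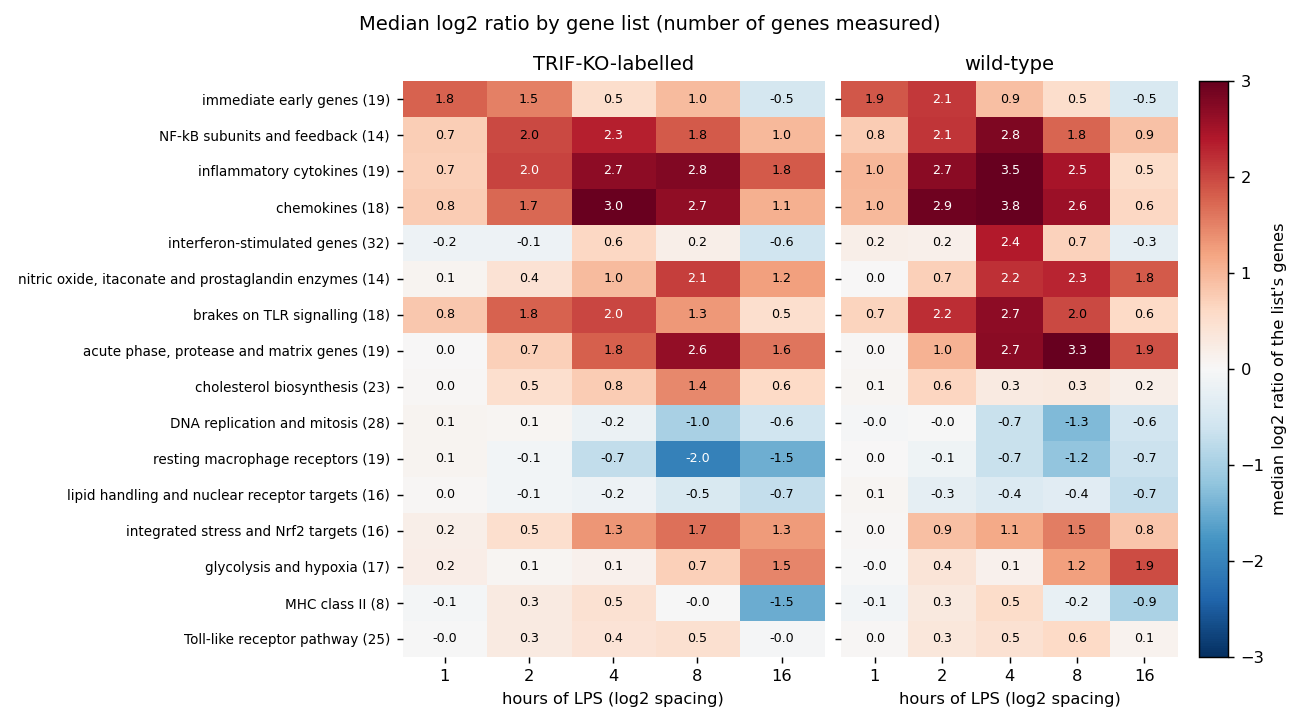
Median log2 ratio (number and colour) of each gene list against hours of LPS, in TRIF-KO-labelled (left) and wild-type cells (right), with the number of genes measured in brackets. Cytokines and cholesterol genes are highest at 8 h on the left and at 4 h or earlier on the right, and interferon-stimulated genes reach 0.622 at 4 h on the left against 2.373 on the right.

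Most interferon-stimulated genes were called in no phase. Of 32, 0 were called early, 3 higher at 4 h (1.91% of all genes were) and 8 lower late (14.9% of all genes were), with medians of -0.154, -0.145, 0.622, 0.18 and -0.596, beside 0.176, 0.154, 2.373, 0.703 and -0.271 in wild-type cells. None had a TRIF-KO-labelled ratio above wild-type at 4 h, and the share over all genes was not counted. Ifit1, which binds foreign RNA, had -0.01, -0.30, 2.09, 0.47 and -0.33 (4 h 2.09 ± 0.42, adjusted p = 0.024), with 4.25 at 4 h in wild-type cells. Mx2, an antiviral GTPase, had -0.11, -0.49, 2.42, -0.11 and -1.0 (4 h 2.42 ± 0.32, adjusted p = 0.0034), with 4.21 in wild-type. Both peaks were on the single 4 h array. The third gene was Usp18, an interferon receptor inhibitor (1.28 ± 0.29, adjusted p = 0.039). Ifit2, Ifit3 and Iigp1 were among the 8 lower late.

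The channels gave another picture of these genes. From early to late the untreated level of 25 of the 32 was called higher and of 0 lower, and the LPS level of 20 higher and 1 lower. Over all genes the shares called higher and lower were 9.45% and 8.36% untreated, and 10.6% and 11.5% with LPS. The median untreated level stood at -0.231, -0.524, 1.089 and 1.42 relative to 1 h at 2, 4, 8 and 16 h, and the LPS level at -0.193, 0.43, 1.513 and 0.919. In wild-type cells the untreated medians were -0.118, -0.373, 0.985 and 1.349, so the rise without LPS was there in both. Ifit1 untreated was 14.61, 14.19, 13.46, 15.98 and 15.78 and rose by 1.48 ± 0.22 (adjusted p = 0.0025), beside 1.70 ± 0.40 with LPS (adjusted p = 0.015). The change between slides falls between 4 and 8 h, and its part in these levels was not tested.

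Ifnb1, interferon beta, had ratios of 1.06, 2.47, 2.84, 0.14 and -2.40 and was called in no phase, against 2.06, 5.97, 3.88, -1.90 and -2.10 in wild-type cells. Its untreated level rose by 3.75 ± 0.33 from early to late (adjusted p = 0.00022), from 7.47 and 7.67 to 11.08 and 11.55. Il10, the anti-inflammatory cytokine, had 1.38, 1.01, 0.48, -1.78 and -3.12, beside 2.29, 3.62, 3.60, 1.15 and -2.61 in wild-type. Its late mean was lower than 0 (-2.45 ± 0.73, adjusted p = 0.03) and late minus early was -3.64 ± 1.03 (12.5-fold lower, adjusted p = 0.049). The untreated Il10 level rose by 2.27 ± 0.20 (adjusted p = 0.00024), and the LPS level changed by -1.37 ± 0.92 (adjusted p = 0.32). Cxcl10, a chemokine of this group, was called at 4 h only (3.63 ± 0.86, adjusted p = 0.043), with a wild-type ratio of 6.51.

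Genes of DNA replication and mitosis were called lower late in 15 of 28 cases and higher in 2, beside 14.9% and 12.8% of all genes. From early to late, 18 fell in the LPS channel and 9 in the untreated channel, beside 11.5% and 8.36% of all genes. Cenpe, a kinesin of the kinetochore, had 0.48, 0.76, -0.07, -1.94 and -2.26 (late -2.10 ± 0.27, adjusted p = 0.00033). The proliferation marker Mki67 went against the list, with 0.18, 1.25, 1.37, 2.08 and 3.58 (late 2.83 ± 0.51, adjusted p = 0.0023). Its LPS level moved from 15.51 to 15.12 between 1 and 16 h while its untreated level went from 15.33 to 11.55. The other higher gene was Ccne1, cyclin E1, with 1.84 and 1.37 at 8 and 16 h (late 1.60 ± 0.26, adjusted p = 0.0012). Mcm6, a subunit of the replicative helicase, was lower from 4 h (-1.28 ± 0.15, adjusted p = 0.0018).

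Lipid genes moved both ways late, 5 of 16 higher and 8 lower, beside 12.8% and 14.9% of all genes. Angptl4, an inhibitor of lipoprotein lipase, had 0.02, -1.45, -3.31, -3.44 and -2.96 (late -3.20 ± 0.42, adjusted p = 0.00037), and here the untreated level rose by 1.64 ± 0.27 (adjusted p = 0.0037). Pparg, a lipid-sensing nuclear receptor, had 0.14, -0.67, -1.45, -2.07 and -3.07 (late -2.57 ± 0.30, adjusted p = 0.00017). Of 8 MHC class II genes, 3 were lower late (Ciita, H2-DMa and H2-DMb1) and 1 higher (H2-Oa). Of 25 members of the Toll-like receptor pathway, 3 were higher at 4 h (Cd14, Ticam2 and Tlr2), and 3 were higher and 4 lower late, close to the shares over all genes (12.8% and 14.9%). Tlr4 was among the lower (-0.67 ± 0.22, adjusted p = 0.041), and Myd88 was called in no phase, with 1.26 at 4 h (adjusted p = 0.06).

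The ratios of many genes returned between 8 and 16 h. Of 1424 genes past 2-fold higher at 8 h, 709 were still so at 16 h and 715 were not, while 602 were past 2-fold at 16 h alone. Of 2082 past 2-fold lower at 8 h, 842 were still so and 1240 were not, with 501 at 16 h alone. In the 715 genes that came back from above, the LPS level changed by a median of -0.672 and the untreated level by 0.142 between 8 and 16 h. In the 1240 that came back from below, these were 0.716 and -0.332. Both channels thus moved toward each other, the LPS channel further, a description of genes chosen by these ratios. The ratios of Tnfsf9, Dusp2 and Csf3, the granulocyte colony-stimulating factor (3.27 at 8 h and 2.24 at 16 h), were lower at 16 h than at 8 h, whereas Slpi, Cd38, Acsl1 and Hp, haptoglobin (2.01 and 2.73), had their highest ratio at 16 h.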

How the data were processed

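The deposited scanner files, written by Agilent Feature Extraction 10.10.1.1 per the file headers, hold the mean and background intensity of each spot in Cy5 and Cy3 and a log10 ratio of the processed signals. The deposited value table equals that log10 ratio. Mean intensities were background-corrected (limma 3.58.1 in R 4.3.3; normexp, offset 50), loess-normalized within arrays and turned to log2 ratios from the deposited intensities. Control spots had weight 0 and outlier spots were dropped. Channel levels were Aquantile-normalized over all 20 arrays and fitted on the 19 arrays with LPS in Cy5. A probe was kept if well above background in a channel on at least 3 of 20 arrays (28304 probes), and the brightest probe stood for a gene (21961 genes). Symbols and promoters came from RefSeq (GRCm38.p6). Probe positions are those of the array files (mm9).

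The limma model had a mean for each genotype and phase over all 20 arrays (8 residual degrees of freedom), with the sign of the dye-swapped array turned. A run of the model on simulated data used independent noise and no change between the times joined in a phase. It therefore does not show how the model behaves on arrays with such a change. "At least" folds set the brighter channel against the lowest signal well above background. The precision is limited by the number of arrays. Same-numbered arrays share a time point; their deviations from the phase means correlated at 0.82 (early) and 0.84 (late) for wild-type and TRIF-KO, 0.46 to 0.58 for either with MyD88-KO and -0.21 to 0.19 for any pair with double-KO. As not every pair passed 0.1, the fit has no replicate block, which was run as an alternative.

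Members and gene lists were chosen with earlier results of these data known. Named were the 8 highest and 8 lowest called genes of each phase and of late minus early that had the same sign on each array of the phase, a fixed roster and at most 4 members of each list. Alox5, Btg2, Camta1, Ccl4, Ciita, Csf3, Ebp, Fosb, H2-Oa, Hp, Ier3, Ier5, Ifit2, Ifit3, Iigp1, Il12a, Irak3, Msr1, Ptgs1, Rab3ip, Rasgrf1, Socs1, Socs3, Srebf2, Ticam2, Txlnb, U90926 and Usp18 are outside that rule and were chosen after their values were seen. Alternatives covered the background correction, scaling, probe filter, slide, replicate block, samples fitted and each TRIF-KO array left out. The whole-series MyD88-KO arrays entered the fit and are not described.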

Additional observations from a re-analysis of the deposited data

Results flagged for a closer look

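The 5 TRIF-KO-labelled ratios of each named gene are time points and not replicates. Among them, 1 array stood apart from the other 4 for 4 of 100 genes tested. These were the 1 h ratios of Cxcl3 (2.92) and Il12b (1.01), the 4 h ratio of Mx2 (2.42) and the 16 h ratio of H2-Eb1 (-1.73), an MHC class II chain. The gap to the nearest other array was 0.808, 0.711, 0.739 and 0.727 of the whole range.

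The late minus early change differed from that of wild-type by 4.23 for Cxcl5, 2.64 for Txlnb, 2.62 for Rasgrf1 and 1.66 for Camta1 (limma, adjusted p = 0.038 for each). The late minus 4 h change differed by 6.60 for Il12a (adjusted p = 0.022), 2.37 for U90926 (0.031) and 2.00 for Rab3ip (0.0061). Both late ratios were higher than the early or 4 h ones for all 7 genes. The sizes for Cxcl5, Camta1 and Il12a are fitted values that rest on ratios with a channel not well above background. All 7 lost the call with scaled ratios (adjusted p 0.13 to 1), with the scanner's log ratio (0.12 to 0.79) and without the double-KO arrays (0.12 to 0.33).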

How the results depend on the processing

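No gene value called in the main run turned its direction under any alternative run. Many alternatives keep the same ratios and so the same mean, which could not turn, so this says little on stability. Counts are calls in both directions (limma). With the TRIF-KO arrays alone there were 0 early, 0 at 4 h, 3131 late, 216 for late minus early, 0 for 4 h minus early, and 3151 (LPS) and 1277 (untreated) for the levels. Without background correction there were 91 early, 1713 at 4 h, 1 for late minus early against wild-type and 162 for 4 h minus early. With scaled ratios the counts were 338 early, 1464 at 4 h, 1967 late, 436 for late minus early, 0 for it against wild-type, 49 early and 675 late against double-KO, 157 for 4 h minus early (62 higher, 95 lower, beside 43 and 42) and 0 for late minus 4 h against wild-type. With the scanner's log ratio they were 1755 at 4 h, 1 for late minus early against wild-type, 1 early against double-KO and 156 for 4 h minus early. Slide as a fixed block gave 56 for 4 h minus early, and no other result could be fitted with it. Slide as a random block gave 90 early. Probes above background on all 5 arrays gave 1 for late minus 4 h against wild-type. Without the double-KO arrays there were 12 early, 185 at 4 h, 1162 for late minus early, 2 for 4 h minus early and 0 for either difference from wild-type. Without the dye-swapped array there were 167 early, 0 for late minus early and 1 for late minus 4 h against wild-type.

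The replicate block gave 352 early, 2937 at 4 h, 3727 for late minus early, 1 for it against wild-type, 20 early and 4437 late against double-KO, 337 for 4 h minus early and 6575 for the untreated level. The numbers mark only a shared time point.

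Leaving out 1 TRIF-KO array at a time gave 0 to 59 calls early, 840 to 1072 at 4 h, 3206 to 6075 late, 915 to 2349 for late minus early, 0 to 16 for it against wild-type, 0 to 0 early and 1710 to 2852 late against double-KO, 10 to 90 for 4 h minus early, 1 to 5 for late minus 4 h against wild-type, 2239 to 4859 for the LPS level and 912 to 3911 for the untreated level. The untreated count was 912 without the 16 h array and 2057 without the 2 h array. The upper ends 59, 6075, 2349, 2852, 4859 and 3911 equal the main counts. They come from leaving out the 4 h array, which these results do not use, so they say nothing on stability. The count of genes peaking later than in wild-type, 472 higher and 449 lower, was 467 and 413 without background correction and 636 and 635 with the scanner's ratio, settings added after seeing the data. The cause of these shifts was not tested. Genes near background have only bounds.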
